A study of Mus musculus with 12 samples.

Results

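The genes described here are the collagen chains and the enzymes that modify and cross-link them, a set defined by symbol and chosen with earlier results of these data known. They are collagen chains (Col followed by a type and an alpha number), lysyl oxidases (Lox and Loxl1 to Loxl4), the alpha subunits of prolyl 4-hydroxylase (P4ha1 to P4ha3) and lysyl hydroxylases (Plod1 to Plod3). They numbered 51 of the 17103 genes tested, 40 collagen chains and 11 enzymes, read by 53 probe sets because Col5a2 and Loxl4 had 2 each. Another 4 genes of the same form in RefSeq (Col26a1, Col6a4, Col6a5 and Col6a6) were not analysed here. The study hybridised RNA of cultured mouse cells to 12 Affymetrix Mouse Gene 1.0 ST arrays, 3 for each of 4 label groups. The groups iNSC1 and iNSC2 are labelled induced neural stem cells, NSC is labelled wild-type neural stem cells, and MEF is labelled wild-type mouse embryonic fibroblasts (replicates 1, 3 and 5). The iNSC and NSC cultures shared a neural stem cell medium that held heparin at 2 µg/ml and both growth factors, EGF and FGF-2, at 20 ng/ml. Fibroblasts grew in DMEM with 10% serum, so cell type and medium cannot be told apart in any difference from MEF. The labels give no strain, no source animals and no account of what sets iNSC1 apart from iNSC2. They do not say whether the arrays of a group were separate cultures, so each p-value measures only the spread between these arrays, which may be technical.

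Collagens are secreted proteins of the extracellular matrix built from 3 chains wound into a helix. Prolyl 4-hydroxylases stabilise that helix inside the cell, lysyl hydroxylases modify lysines that later carry sugars or cross-links, and lysyl oxidases act outside the cell on lysines, which starts the covalent cross-links between molecules. Fibrillar collagens form the fibres of connective tissue and are made in large amounts by fibroblasts, while type IV collagen forms the sheet of basement membranes. The FACIT collagens attach to fibrils, type VI collagen forms beaded filaments, types VIII and X form networks, and a few collagens span the cell membrane.

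Levels are log2 values made by the authors with RMA, a method that corrects background, equalises the arrays and summarises the probes of a gene. They can be compared between arrays for a given probe set and not between probe sets, and without detection calls on these arrays a low value may be no more than background. The median probe set of an array read 4.31 to 4.44. The labels were checked against marker genes. All 12 fibroblast markers were lower in NSC than in MEF, with mean levels over the list of 8.40 to 8.69 on the MEF arrays and 4.799 to 4.808 on the NSC arrays. The authors' table gives symbols only to probe sets with a group mean above 3, and Lum and Postn passed that bound in MEF alone, so their direction was fixed; the other 10 were lower too. Of 9 neural stem cell markers, 3 were higher in NSC than in MEF (Olig2, Pax6 and Sox1) and the other 6 were not called. In iNSC, 0 of the 9 were called against MEF, and 5 were higher with no fold minimum (29.3% of all genes). By the rule for a call given below, 9.96% of all genes were lower and 8.72% higher in NSC than in MEF. For iNSC the shares were 10.9% and 8.21%. The Sox2 level, however, was 4.58 ± 0.12 on the NSC arrays against 4.502 ± 0.046 on the MEF arrays (SD, n = 3). The pluripotency factor Pou5f1 read 12.89 ± 0.020 in NSC, 12.98 ± 0.025 in iNSC1, 13.01 ± 0.033 in iNSC2 and 3.55 ± 0.26 in MEF (SD, n = 3). NSC and iNSC therefore stand for the labels of the arrays throughout. In bulk RNA, fewer cells of a type and less RNA per cell cannot be told apart.

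The stretches upstream of 4 collagen genes are shown because these genes carry the contrasts described below: Col1a2 and Col5a1 are fibrillar chains that were low outside the fibroblasts, and Col4a5 and Col4a6 lie head to head on the X chromosome and read differently. Each is written 5′ to 3′ on the strand of its gene, from RefSeq on build GRCm38.p6, and ends at the base before the annotated start of transcription. Capitals mark GGGCGG, the GC box, and CCAAT, the CCAAT box, on either strand (CCGCCC is the GC box read from the other strand). They run from chr6:4505368-4505617 (plus strand) for Col1a2, chr2:27886175-27886380 (plus) for Col5a1, chrX:141475169-141475369 (plus) for Col4a5 and chrX:141474096-141474326 (minus) for Col4a6.
Col1a2: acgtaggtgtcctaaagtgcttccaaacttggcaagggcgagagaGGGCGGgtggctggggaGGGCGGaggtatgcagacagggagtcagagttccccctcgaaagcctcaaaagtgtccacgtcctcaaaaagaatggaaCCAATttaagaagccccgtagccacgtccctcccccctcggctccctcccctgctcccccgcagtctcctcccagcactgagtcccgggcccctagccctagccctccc
Col5a1: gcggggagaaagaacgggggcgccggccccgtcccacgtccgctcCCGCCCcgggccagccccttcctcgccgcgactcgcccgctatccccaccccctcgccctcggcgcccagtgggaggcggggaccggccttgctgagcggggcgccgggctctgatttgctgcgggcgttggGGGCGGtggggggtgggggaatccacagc
Col4a5: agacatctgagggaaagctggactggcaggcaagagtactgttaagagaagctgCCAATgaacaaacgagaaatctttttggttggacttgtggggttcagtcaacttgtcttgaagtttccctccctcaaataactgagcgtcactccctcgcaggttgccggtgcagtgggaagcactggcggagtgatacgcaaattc
Col4a6: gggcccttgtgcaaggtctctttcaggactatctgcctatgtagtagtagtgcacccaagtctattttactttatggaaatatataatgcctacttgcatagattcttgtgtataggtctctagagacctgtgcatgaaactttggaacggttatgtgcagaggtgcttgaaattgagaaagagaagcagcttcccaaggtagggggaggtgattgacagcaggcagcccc
The Col1a2 stretch holds 2 GC boxes and 1 CCAAT box, that of Col5a1 holds 2 GC boxes, that of Col4a5 holds 1 CCAAT box, and that of Col4a6 holds neither.

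RefSeq gave an upstream sequence for 38 of the 51 genes. Within 250 bases upstream, GGGCGG on either strand was found in 23 of the 38 (60.5%), against 35.4% of the 27025 genes with such a sequence. It was found in 64.7% of the 17 that were lower in NSC than in MEF and in 57.1% of the other 21. CCAAT was found in 34.2% of the 38 genes and in 37.5% of all genes, and TATAAA in 15.8% and 14.3%. The marked motifs do not overlap in the stretches shown, and a match describes the letters and is not a binding site.

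The fibroblast arrays read higher than the NSC arrays for 23 of the 51 genes and lower for none. A call needed a limma p under 0.05 after Benjamini-Hochberg adjustment across the 17103 genes and a change of at least 2-fold, and by that rule 9.96% of all genes were lower in NSC and 8.72% higher. The median difference, NSC minus MEF, was -0.66 for these genes and 0.045 for all genes. The arrays of both groups did not overlap for 32 genes with NSC below MEF and for 2 with NSC above it (25.6% and 31.3% of all genes). Of the 23, 15 were among the 40 collagen chains and 8 among the 11 enzymes. The same total, 23 lower and 0 higher, was found for iNSC minus MEF, where 10.9% of all genes were lower and 8.21% higher. There the arrays did not overlap for 28 genes with iNSC below MEF and 3 above (23.6% and 25.6% of all genes). Col5a2, on a probe set of 86 bases, is among those above MEF in both counts. Its gene-wide probe set, described below, was lower. Both comparisons rest on the same 3 MEF arrays, so their values are given side by side. Each iNSC set on its own gave 23 lower and 0 higher against MEF (iNSC1, with 11.3% of all genes lower and 8.52% higher) and again 23 lower and 0 higher (iNSC2, with 10.6% and 8.14%).

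**Figure D1:**
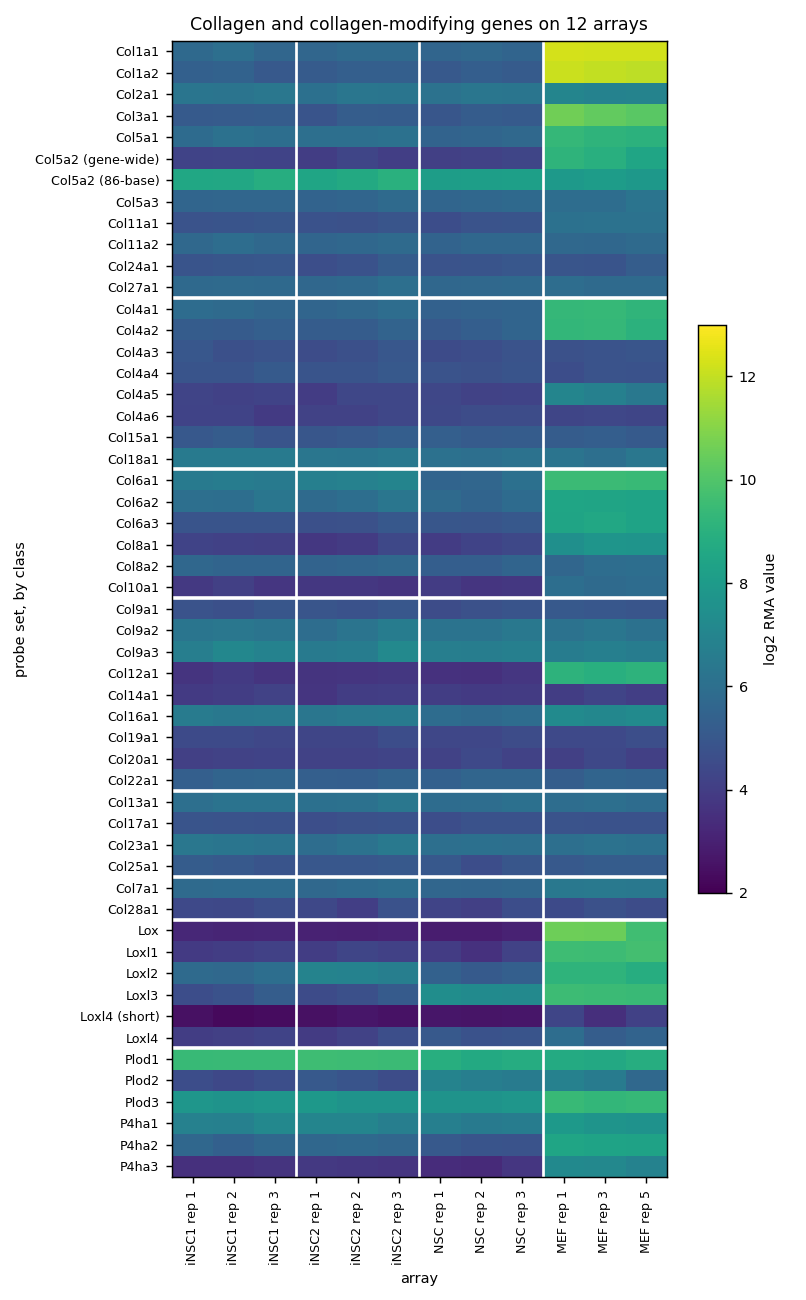
Level of each collagen and collagen-modifying gene (rows, by class, white lines between classes) on each of the 12 arrays (columns), coloured by log2 RMA value. The 3 MEF columns read 11.91 to 12.28 for Col1a1 and Col1a2, where the other 9 arrays lie between 5.05 and 6.02.

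Among the fibrillar chains, Col1a1, Col1a2, Col3a1, Col5a1 and Col11a1 were lower in NSC and in iNSC than in MEF, 5 of 11 (9.96% and 10.9% of all genes). Col1a1, the alpha 1 chain of type I collagen (chromosome 11, 94797574 to 94813184, plus strand, in a build not given in the sources used here), read 12.28, 12.24 and 12.24 on the MEF arrays. It read 5.58, 5.697 and 5.54 on the NSC arrays, 5.76, 6.02 and 5.62 on the iNSC1 arrays and 5.65, 5.78 and 5.801 on the iNSC2 arrays. The MEF arrays thus stood alone, and the other 3 groups overlapped each other. NSC minus MEF was -6.65 ± 0.10 (SE, 100-fold, limma adjusted p = 3.12e-18), and iNSC minus MEF was -6.48 ± 0.087 (89.4-fold, limma adjusted p = 3.73e-19).

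Col1a2, the partner chain of type I collagen, read 12.12, 12.01 and 11.91 on the MEF arrays and from 5.05 to 5.46 on the other 9. Its NSC minus MEF difference was -6.84 ± 0.11 (SE, 114-fold) and its iNSC minus MEF difference -6.72 ± 0.095 (106-fold). Both chains of the type I helix were thus low on every NSC and iNSC array. Col3a1, the chain of type III collagen found with type I in soft tissues, read 10.61, 10.37 and 10.199 in MEF against 4.86 to 5.26 elsewhere, a difference of -5.29 ± 0.12 (39.1-fold) for NSC and -5.26 ± 0.11 (38.3-fold) for iNSC. Col5a1, a type V chain that joins type I fibrils and helps set their width, read 9.32, 9.14 and 9.06 in MEF, 5.48 to 5.696 in NSC and 5.85 to 6.12 in iNSC. Its differences were -3.59 ± 0.10 (12.0-fold) for NSC and -3.16 ± 0.088 (8.93-fold) for iNSC. Col11a1 read 6.09, 6.13 and 6.14 in MEF and 4.62 to 4.94 elsewhere. This type XI chain best known from cartilage differed least of the 5, by -1.36 ± 0.11 and -1.29 ± 0.092.

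The type V partner chain Col5a2 was read by 2 probe sets that went opposite ways. The probe set that stood for the gene in the fit, because its mean over the 12 arrays was higher, covers only 86 bases inside the gene (chromosome 1, 45486231 to 45486316, minus strand). It read 7.96 ± 0.11 in MEF, 8.15 ± 0.044 in NSC, 8.68 ± 0.16 in iNSC1 and 8.71 ± 0.26 in iNSC2 (SD, n = 3). The probe set that spans the whole gene (45431176 to 45560127, 128952 bases) read 9.14, 8.94 and 8.47 on the MEF arrays and between 3.98 and 4.31 on the other 9. Its NSC minus MEF difference was -4.66 ± 0.15 (SE, 25.2-fold, limma adjusted p = 8.09e-14 with every probe set fitted on its own), and its iNSC minus MEF difference was -4.68 ± 0.13 (25.6-fold). The gene-wide reading was thus low on every array outside MEF, and with it in place of the 86-base one 24 genes were lower in NSC than in MEF. The authors' annotation matches the 86-base probe set to an Ensembl transcript and the gene-wide one to a RefSeq transcript. Whether the 86-base reading comes from the Col5a2 messenger RNA was not tested.

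In the authors' table Col5a2 lies tail to tail with Col3a1 on chromosome 1, 25310 bases apart, and both were low outside MEF on their gene-wide probe sets. The other fibrillar chains differed less from MEF or did not pass. Col2a1, the main collagen of cartilage, was -0.70 ± 0.096 and Col5a3 -0.38 ± 0.11 for NSC minus MEF, both past the adjusted p without reaching 2-fold. The corresponding iNSC minus MEF differences were -0.69 ± 0.083 and -0.42 ± 0.096. For Col11a2, Col24a1 and Col27a1 the NSC minus MEF differences lay between -0.14 and -0.10, and none passed. Without the fold minimum, 28 of the 51 genes were lower and 0 higher in NSC than in MEF (23.9% and 27.9% of all genes), and 29 were lower and 3 higher in iNSC (26.6% and 29.3%). The iNSC1 arrays alone gave 28 lower and 3 higher without the fold minimum (25.5% and 27.6% of all genes), and the iNSC2 arrays 28 lower and 2 higher (24.7% and 26.5%). The genes higher in these iNSC counts include Col5a2 on its 86-base probe set, whose gene-wide probe set was lower.

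**Figure D2:**
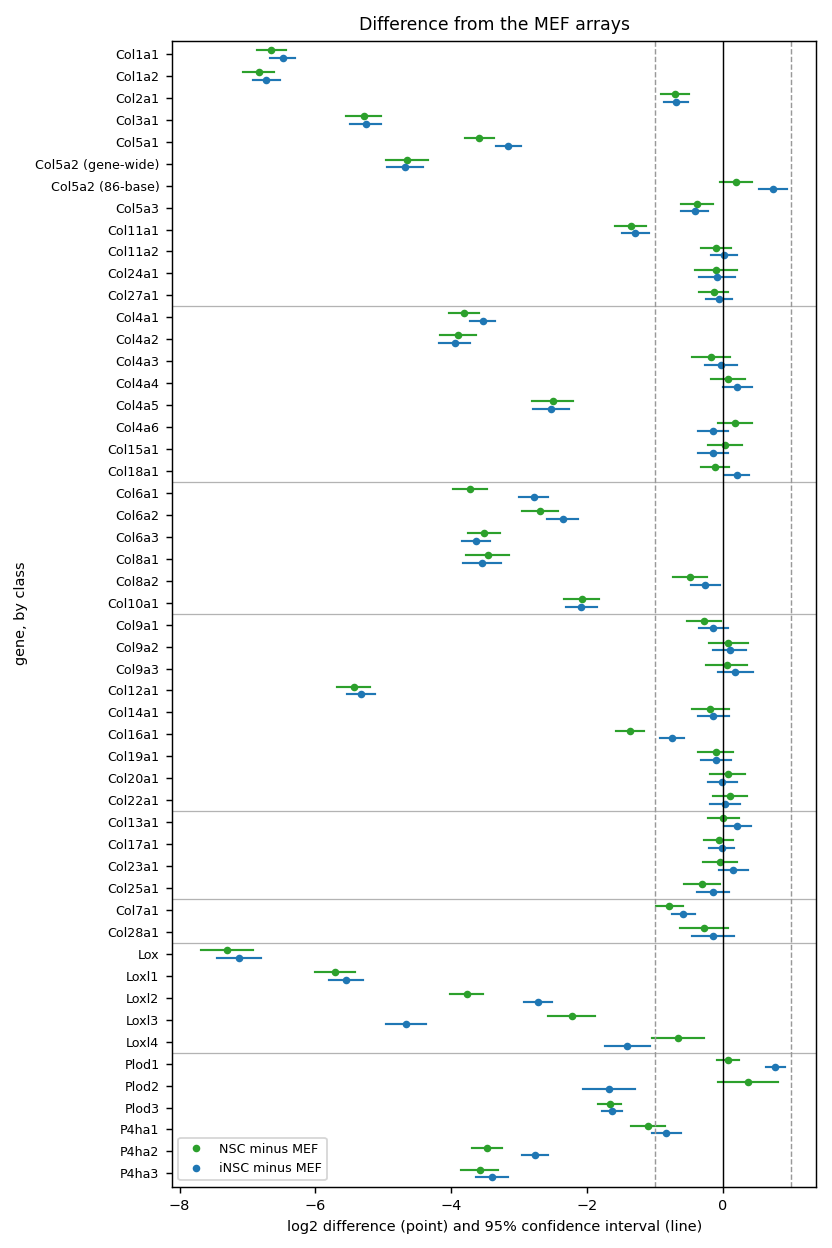
Log2 difference from MEF for each gene (rows, grey lines between classes), with NSC minus MEF in green and iNSC minus MEF in blue; points are limma estimates, bars 95% confidence intervals, and dashed lines mark 2-fold. Lox, Col1a2 and Col1a1 lie farthest left at -7.30, -6.84 and -6.65 for NSC, while the transmembrane chains Col13a1 to Col25a1 lie near 0.

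Of the 8 basement membrane and related chains, Col4a1, Col4a2 and Col4a5 were lower outside the fibroblasts and the other 5 were not called. Of all genes, 9.96% were lower in NSC and 10.9% in iNSC. Col4a1 and Col4a2 encode the chains of the common type IV network and lie head to head on chromosome 8, with 293 bases between their annotated ends in the authors' table. Col4a1 read 9.32, 9.38 and 9.19 in MEF and 5.43 to 5.92 elsewhere, and NSC minus MEF was -3.81 ± 0.10 (SE, 14.1-fold). Col4a2 read 9.26, 9.31 and 9.05 in MEF and 5.09 to 5.55 elsewhere, and NSC minus MEF was -3.90 ± 0.13 (14.9-fold). For iNSC minus MEF the pair gave -3.54 ± 0.090 and -3.95 ± 0.11, so both chains of this pair fell in every array outside MEF.

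The other type IV pairs did not move in that way. Col4a4 and Col4a3, chains of the network found in the kidney filter, lie head to head on chromosome 1 with 183 bases between them. Their NSC minus MEF differences were 0.07 (95% confidence interval -0.18 to 0.32) and -0.17 (-0.45 to 0.10), and all group means lay between 4.64 and 4.94. Col4a6 and Col4a5 lie head to head on the X chromosome, 1342 bases apart. Col4a5 read 7.02, 6.78 and 6.42 on the MEF arrays and 3.96 to 4.34 on the others, with NSC minus MEF at -2.51 ± 0.15 (SE, 5.69-fold) and iNSC minus MEF at -2.53 ± 0.13 (5.77-fold). Col4a6 read 4.29, 4.34 and 4.301 in MEF and 4.38, 4.54 and 4.55 in NSC, a difference of 0.18 (-0.08 to 0.44) that did not pass.

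Col15a1 and Col18a1, basement membrane collagens whose ends are cut off as small fragments, were not lower. Col15a1 differed by 0.03 (95% confidence interval -0.22 to 0.29) for NSC minus MEF and by -0.14 (-0.36 to 0.08) for iNSC minus MEF. Col18a1, the source of endostatin, differed by -0.12 (-0.33 to 0.09) for NSC and was 0.21 ± 0.085 higher for iNSC (SE, limma adjusted p = 0.0463), below 2-fold. The iNSC and MEF arrays overlapped for this gene. iNSC1 alone differed by 0.29 (limma adjusted p = 0.0177), and iNSC2 alone, at 0.12 (limma adjusted p = 0.326), did not pass.

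**Figure D3:**
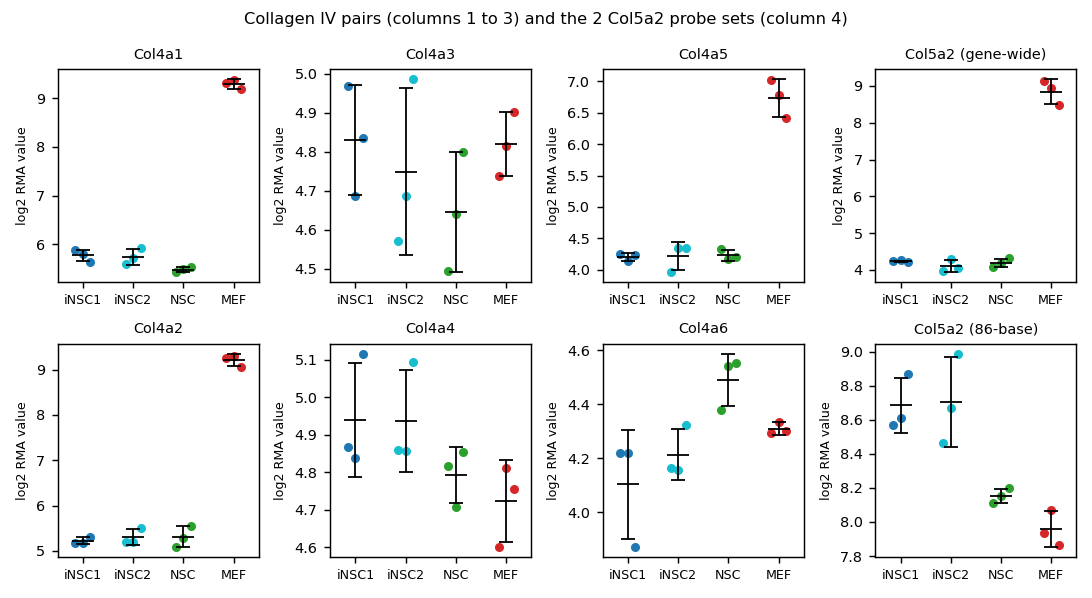
Log2 RMA values on each array (points) with the group mean and SD (bars, n = 3) for the type IV collagen pairs, a pair to a column, and for both Col5a2 probe sets in the last column; the vertical axes differ. In the first column the MEF arrays of Col4a1 and Col4a2 lie at 9.05 to 9.38, far above the others, in the third those of Col4a5 lie at 6.42 to 7.02 while every Col4a6 reading lies between 3.87 and 4.55, and in the last column the gene-wide Col5a2 probe set is high in MEF while the 86-base one is not.

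Of the 6 network and beaded-filament chains, 5 were lower in NSC than in MEF and the same number in iNSC (9.96% and 10.9% of all genes). Col6a1, a type VI chain, read 9.52, 9.49 and 9.43 in MEF, 5.55, 5.64 and 6.07 in NSC, 6.48, 6.63 and 6.54 in iNSC1 and 6.73, 6.82 and 6.96 in iNSC2. Every iNSC array was thus above every NSC array and below every MEF array. NSC minus MEF was -3.72 ± 0.12 (SE, 13.2-fold) and iNSC minus MEF -2.78 ± 0.10 (6.88-fold). Col6a3 read 8.44, 8.59 and 8.38 in MEF and 4.67 to 5.05 elsewhere, and Col6a2 read 8.46, 8.45 and 8.37 in MEF and 5.56 to 6.304 elsewhere. These partner chains differed by -3.51 ± 0.11 and -2.69 ± 0.13 for NSC and by -3.63 ± 0.097 and -2.36 ± 0.11 for iNSC. Col8a1, a chain of the short-chain network of vessels and cornea, read 7.49, 7.74 and 7.68 in MEF and 3.795 to 4.39 elsewhere, and differed by -3.46 ± 0.15 and -3.55 ± 0.13, while its partner Col8a2 differed by -0.48 ± 0.12 and -0.26 ± 0.10 and did not reach 2-fold. Col10a1, known from the growth plate of bone, was -2.08 ± 0.12 and -2.09 ± 0.11. In either comparison 0 of 5 measured cartilage markers were called. Among them Comp differed by -0.775 for NSC minus MEF and -0.68 for iNSC minus MEF, past the adjusted p below 2-fold. Of all genes, 9.96% were lower and 8.72% higher in NSC, and 10.9% and 8.21% in iNSC.

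Among the 9 FACIT collagens, Col12a1 had by far the largest difference. Col12a1, which lies along type I fibrils, read 9.09, 8.93 and 9.12 in MEF and 3.51 to 3.89 on the other arrays. Its NSC minus MEF difference was -5.44 ± 0.11 (SE, 43.3-fold, limma adjusted p = 1.11e-16), and iNSC minus MEF was -5.33 ± 0.099 (40.3-fold). Col16a1 read 7.26, 7.09 and 7.27 in MEF, 5.74 to 5.895 in NSC and 6.34 to 6.58 in iNSC, so the iNSC arrays lay between the others. It was lower in NSC, by -1.36 ± 0.097 (2.57-fold), and its iNSC minus MEF difference of -0.75 ± 0.084 did not reach 2-fold. The other 7 FACIT chains, Col14a1 among them, had NSC minus MEF differences from -0.28 to 0.11, and none passed.

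The 4 transmembrane chains Col13a1, Col17a1, Col23a1 and Col25a1 had NSC minus MEF differences from -0.30 to 0.01 and none was called in either comparison with MEF. Col7a1, the anchoring fibril collagen of skin, was -0.79 ± 0.095 and -0.58 ± 0.082 for NSC and iNSC, past the adjusted p below 2-fold. Col28a1 did not pass, at -0.28 (95% confidence interval -0.64 to 0.07) and -0.14 (-0.45 to 0.16). Every one of these 6 chains had group means between 4.31 and 6.43 in all 4 groups, and without detection calls it was not tested whether such readings stand above background.

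The lysyl oxidases were lower outside the fibroblasts, 4 of 5 in NSC and 5 of 5 in iNSC (9.96% and 10.9% of all genes). Lox, which oxidises lysines of collagen and elastin, read 10.58, 10.51 and 9.64 in MEF and 2.89 to 3.22 on the other 9 arrays. MEF replicate 5 was the lowest of its group and still far above every other array. NSC minus MEF was -7.30 ± 0.18 (SE, 158-fold, limma adjusted p = 9.17e-16) and iNSC minus MEF -7.13 ± 0.15 (140-fold). The NSC mean of Lox was 2.94, below the bound for a symbol, while its iNSC mean was 3.12.

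Loxl1, the relative that acts on elastic fibres, read 9.59, 9.54 and 9.71 in MEF and 3.59 to 4.28 elsewhere, with differences of -5.71 ± 0.14 (SE, 52.5-fold) for NSC and -5.55 ± 0.12 (46.9-fold) for iNSC. Loxl4 read 5.94, 5.24 and 5.51 in MEF, 5.08, 4.77 and 4.86 in NSC and 3.91 to 4.65 in iNSC. For this gene NSC lay between the fibroblasts and the iNSC arrays, with NSC minus MEF at -0.66 ± 0.18, below 2-fold, and iNSC minus MEF at -1.40 ± 0.16 (2.65-fold). A second Loxl4 probe set of 336 bases read 3.97 in MEF and 2.37 to 2.64 in the other groups, so it carried a symbol only through the MEF arrays, and its being lower elsewhere (-1.32 ± 0.16 and -1.49 ± 0.14) is no second piece of evidence. Loxl2 and Loxl3 separated the iNSC from the NSC arrays and are described with that comparison.

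Of the 6 hydroxylases, 4 were lower in each comparison with MEF, and 3 of them (P4ha2, P4ha3 and Plod3) were lower in both. Of all genes, 9.96% were lower in NSC and 10.9% in iNSC. P4ha2, a catalytic subunit of prolyl 4-hydroxylase, read 8.46, 8.37 and 8.35 in MEF, 5.07, 4.86 and 4.84 in NSC and 5.39 to 5.75 in iNSC, so its iNSC arrays lay above its NSC arrays. Its differences were -3.48 ± 0.10 (SE, 11.1-fold) for NSC and -2.77 ± 0.091 (6.81-fold) for iNSC. P4ha3, another such subunit, read 7.22, 7.12 and 6.88 in MEF and 3.33 to 3.81 elsewhere, and differed by -3.58 ± 0.13 (12.0-fold) and -3.40 ± 0.11 (10.6-fold). P4ha1, the third such subunit, was lower in NSC at -1.10 ± 0.12 (2.14-fold) and did not reach 2-fold in iNSC at -0.83 ± 0.10; iNSC minus NSC was 0.27 ± 0.10 (limma adjusted p = 0.0539).

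Among the lysyl hydroxylases, Plod3, which also adds sugars to collagen, read 9.39, 9.295 and 9.38 in MEF and 7.63 to 7.86 elsewhere, and was -1.67 ± 0.082 (3.18-fold) for NSC and -1.63 ± 0.071 (3.09-fold) for iNSC. Plod1, the lysyl hydroxylase of the helical part of the chain, read 8.71, 8.62 and 8.85 in MEF, 8.89, 8.697 and 8.82 in NSC, 9.42, 9.47 and 9.45 in iNSC1 and 9.61, 9.53 and 9.51 in iNSC2. The iNSC arrays were thus all above the NSC and MEF arrays, which overlapped. NSC minus MEF was 0.07 (95% confidence interval -0.08 to 0.23), and iNSC was 0.77 ± 0.065 above MEF (SE, 1.71-fold, limma adjusted p = 1.08e-08), which passes the adjusted p and not the fold. Plod2 was lower than MEF in iNSC and not in NSC, and its values follow.

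The comparison of iNSC with NSC bears on how far the induced cells match the labelled neural stem cells, and the share of these genes called was near that of all genes. Of the 51, 1 was higher in iNSC (Loxl2) and 2 were lower (Loxl3 and Plod2), with 2.91% of all genes higher and 3.65% lower by the same rule. All 3 are enzymes that act on lysines of collagen, and 0 of 40 collagen chains reached the fold and the adjusted p. Without the fold minimum 7 chains were higher and 1 lower, so no contrast between enzymes and chains is read from these few calls. The median difference was 0.12 for these genes and 0.008 for all genes. Without the fold minimum, 10 were higher and 4 lower (16.4% and 19.3% of all genes), and the arrays did not overlap for 10 higher and 4 lower (15.5% and 17.5%). The 10 higher by either measure include Col5a2 on its 86-base probe set, whose gene-wide probe set did not pass.

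Loxl3, a lysyl oxidase relative needed for palate and spine in the mouse, read 9.55, 9.49 and 9.45 in MEF, 7.37, 7.28 and 7.17 in NSC, 4.58, 4.78 and 5.26 in iNSC1 and 4.49, 4.71 and 5.17 in iNSC2. The groups did not overlap in the order MEF, NSC and iNSC, and the iNSC sets overlapped each other. iNSC minus NSC was -2.44 ± 0.14 (SE, 5.44-fold, limma adjusted p = 1.96e-10). Set against MEF, NSC was -2.23 ± 0.16 (4.68-fold) and iNSC -4.67 ± 0.14 (25.4-fold).

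Plod2, the lysyl hydroxylase of the ends of collagen chains, whose product shapes the cross-links of bone and scar, read 6.93, 6.69 and 6.58 in NSC and 6.82, 6.56 and 5.71 in MEF. It read 4.60, 4.41 and 4.64 in iNSC1 and 5.06, 4.84 and 4.58 in iNSC2. NSC and MEF overlapped and every iNSC array lay below both, with MEF replicate 5 the closest at 5.71. iNSC minus NSC was -2.05 ± 0.18 (SE, 4.13-fold, limma adjusted p = 5.82e-08) and iNSC minus MEF -1.68 ± 0.18 (3.19-fold, limma adjusted p = 2.7e-07), while NSC minus MEF was 0.37 (95% confidence interval -0.07 to 0.81).

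**Figure D4:**
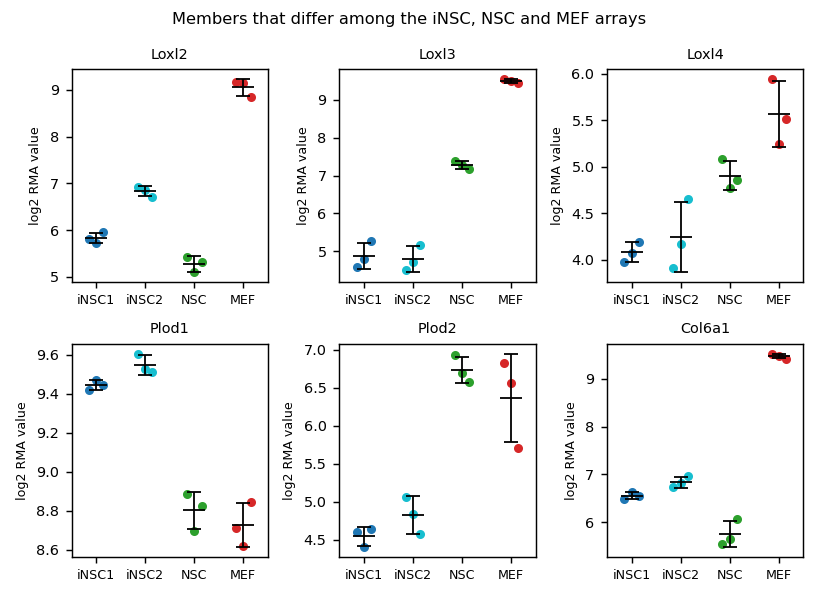
Log2 RMA values on each array (points) with the group mean and SD (bars, n = 3) for Loxl2, Loxl3, Loxl4, Plod1, Plod2 and Col6a1; the vertical axes differ and do not start at 0. For Plod2 the 6 iNSC arrays lie at 4.41 to 5.06 and the NSC arrays at 6.58 to 6.93, and for Loxl2 the iNSC2 arrays lie above the iNSC1 arrays.

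Loxl2, a lysyl oxidase that acts on type IV collagen of basement membranes, read 9.16, 9.15 and 8.85 in MEF and 5.43, 5.102 and 5.31 in NSC. It read 5.82, 5.73 and 5.96 in iNSC1 and 6.92, 6.87 and 6.71 in iNSC2. All 4 groups were apart on this gene, in the order MEF, iNSC2, iNSC1 and NSC. iNSC minus NSC was 1.05 ± 0.099 (SE, 2.07-fold, limma adjusted p = 1.28e-07), just past the fold, and without NSC replicate 2 it was 0.96 and was not called. That estimate uses the midpoint of 2 unlike iNSC sets, with means of 5.84 in iNSC1 and 6.83 in iNSC2 against 5.28 in NSC. iNSC1 was thus nearer to NSC than the estimate says and iNSC2 farther, and the SE leaves out the difference between the sets. Set against MEF, NSC was -3.77 ± 0.11 (13.7-fold) and iNSC -2.72 ± 0.099 (6.58-fold).

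Smaller differences between iNSC and NSC passed the adjusted p alone. Col6a1 was 0.94 ± 0.10 higher in iNSC (SE, 1.92-fold, limma adjusted p = 6.85e-07), and without NSC replicate 3, the highest of its group, it was 1.10 and was called. P4ha2 was 0.71 ± 0.091, Plod1 0.70 ± 0.065 and Col16a1 0.61 ± 0.084 higher. Col5a1 (0.43), Col6a2 (0.33), Col18a1 (0.33) and Col4a1 (0.27) were higher by less, as was the 86-base Col5a2 probe set at 0.54, whose gene-wide probe set differed by -0.02 (95% confidence interval -0.29 to 0.25). Loxl4 was lower by -0.74 ± 0.16, but its 336-base probe set differed by -0.17 (-0.47 to 0.13) and did not pass, and Col4a6 was lower by -0.33 ± 0.10. The genes with the largest differences from MEF did not pass: Lox was 0.17 (-0.16 to 0.50), Col1a1 0.17 (-0.01 to 0.35), Col1a2 0.11 (-0.09 to 0.31) and Col12a1 0.11 (-0.10 to 0.31).

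**Figure D5:**
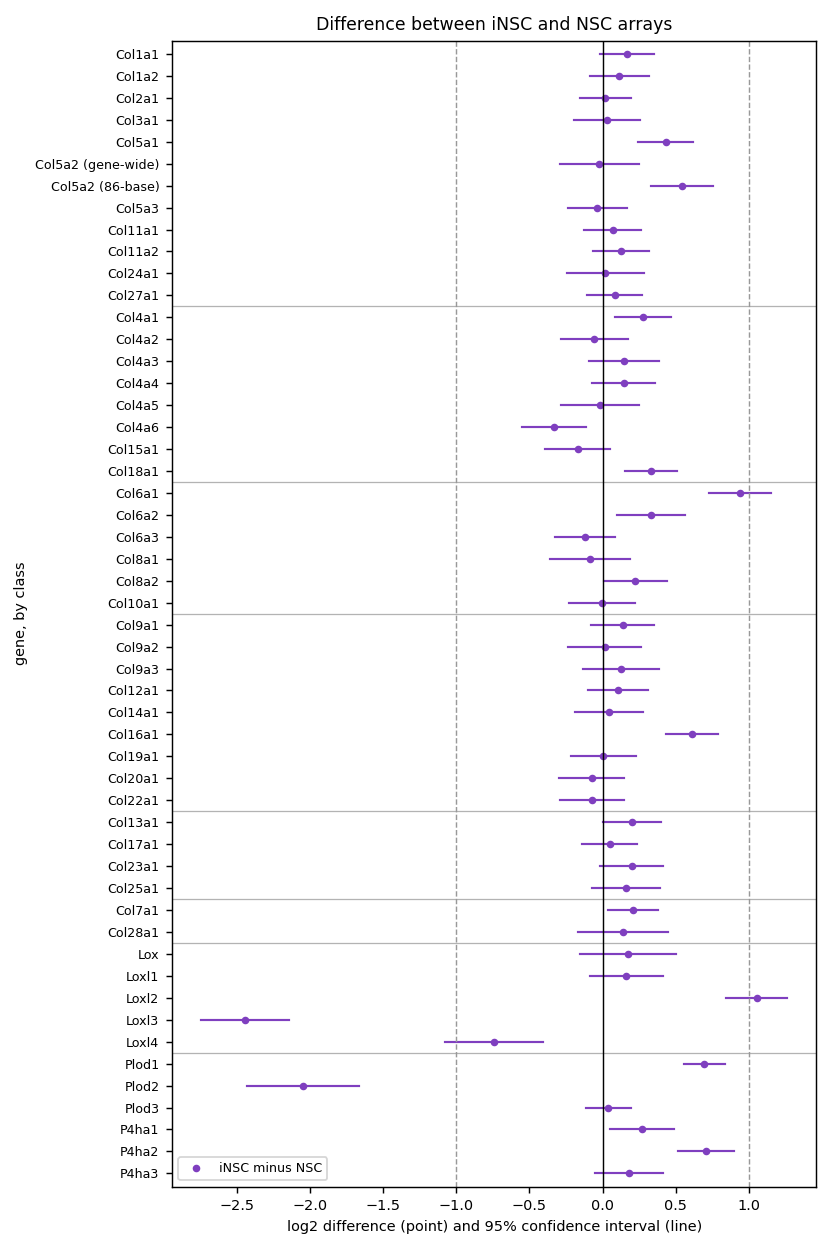
Log2 difference iNSC minus NSC for each gene (rows, grey lines between classes), as limma estimates (points) with 95% confidence intervals (bars); dashed lines mark 2-fold. Loxl3 and Plod2 lie at -2.44 and -2.05, Loxl2 lies at 1.05, and every collagen chain lies within the dashed lines.

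Between iNSC1 and iNSC2, limma called 0 of the 51 genes in either direction, with 0.0877% of all genes higher and 0.0643% lower in iNSC1. At an unadjusted p under 0.05 there were 2, Loxl2 and Col6a1, of 51, against 11.6% of all genes. The arrays of the sets did not overlap for 2 genes higher and 4 lower in iNSC1 (9.3% and 8.62% of all genes). Loxl2 was lower in iNSC1 by -0.9973 ± 0.11 (SE, 1.996-fold, limma adjusted p = 7.11e-05), so it passed the adjusted p and missed the fold minimum, and it was the only 1 of the 51 to do so (0.743% of all genes higher and 1.56% lower with no fold minimum). It was called at -1.06 without iNSC1 replicate 3, at -1.06 without iNSC2 replicate 3, and at -1.02 with arrays centred on their medians. Col6a1 was -0.28 ± 0.12 (limma adjusted p = 0.317).

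Genes for folding, secreting and processing collagen moved with the chains in part. Of 27 listed and measured, 15 were lower and 2 higher in NSC than in MEF, with a median of -1.15 against 0.045 for all genes, and 12 were lower and 1 higher in iNSC, with a median of -0.99 against 0.061. The shares of all genes were 9.96% lower and 8.72% higher in NSC, and 10.9% and 8.21% in iNSC. Without Tll1, which was above the bound of 3 only in MEF, the counts lower were 14 and 11 of 26. Sec24d, a coat protein of the vesicles that carry procollagen, was -4.68 ± 0.14 (SE) in NSC and -4.79 ± 0.12 in iNSC. Creb3l1, a factor that switches on type I collagen genes in bone, was -3.67 ± 0.11 and -3.88 ± 0.099. Serpinh1, the collagen chaperone HSP47, was -2.39 ± 0.092 and -1.46 ± 0.080, and P4hb, the partner subunit of prolyl 4-hydroxylase, was -1.34 ± 0.11 and -1.74 ± 0.096. Bmp1, which removes the C-terminal propeptide, was -2.82 ± 0.084 and -3.21 ± 0.072.

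Members of that list also rose. Pcolce2, which enhances the removal of the propeptide, was higher outside the fibroblasts, by 2.68 ± 0.11 in NSC and 3.60 ± 0.092 in iNSC. Colgalt2, a galactosyltransferase of collagen lysines, was 1.21 ± 0.13 higher in NSC and 0.35 ± 0.11 in iNSC, the latter below 2-fold. Between iNSC and NSC, P3h2, a prolyl 3-hydroxylase, was 1.74 ± 0.11 and Tgm2, a transglutaminase that cross-links matrix proteins, 1.77 ± 0.094 higher in iNSC, and Pxdn, the peroxidase that cross-links type IV collagen, -1.12 ± 0.087 lower. Tgm2 also differed between the iNSC sets, by 1.18 ± 0.11, higher in iNSC1 (limma adjusted p = 9.82e-06).

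Of 17 listed receptors and turnover genes, 14 were measured, and 9 were lower and 0 higher than MEF in NSC as well as in iNSC. Of all genes, 9.96% were lower and 8.72% higher in NSC, and 10.9% and 8.21% in iNSC. The list median was -1.34 for NSC and -1.46 for iNSC, against 0.045 and 0.061 for all genes. Without Ctsk, above the bound of 3 only in MEF, 8 of 13 were lower in each. Mmp14, a membrane-bound collagenase, was -4.71 ± 0.10 (SE) and -5.65 ± 0.090, and Itga11, the alpha subunit of a type I collagen receptor, was -3.91 ± 0.13 and -3.77 ± 0.11. Mrc2, an uptake receptor for collagen fragments, was -2.51 ± 0.083 and -1.44 ± 0.071, and at 1.07 ± 0.071 it was the only gene of this list called between iNSC and NSC.

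Markers of other cells moved with some of these groups, and their part in the collagen differences was not tested. Fibroblast markers were lower in iNSC than in MEF for 11 of 12, or 9 of the 10 not listed through MEF alone, and Dcn, a small proteoglycan that binds collagen, was 1.86 higher. Of 11 macrophage markers, 8 were lower in NSC than in MEF and 8 in iNSC; Lyz2, Adgre1 and Ptprc were above the bound of 3 only in MEF, and of the other 8, 6 and 7 were lower. Mean levels over the list were 6.33 to 6.701 on the MEF arrays and 3.59 to 3.81 on the others. Among them Lyz2 read 8.89 ± 0.76 and C1qb 8.22 ± 0.32 in MEF (SD, n = 3), while Ptprc read 3.11 ± 0.094 there and 2.99 ± 0.025 in NSC. Of 7 endothelial markers, Tek, Pecam1 and Eng were higher in NSC than in MEF and lower in iNSC than in NSC, with list means of 5.14 to 5.19 on the NSC arrays and 4.41 to 4.58 on the iNSC arrays. The epithelial list had 1 of 8 higher in NSC and 3 of 8 in iNSC than in MEF, and the pluripotency list 4 and 6 of 7. By the same rule 9.96% of all genes were lower and 8.72% higher in NSC than in MEF. The shares were 10.9% and 8.21% for iNSC against MEF, and 3.65% were lower in iNSC than in NSC.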

How the data were processed

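The deposited values are log2 intensities that the authors made by RMA; the submitters' processing notes name Affymetrix Power Tools, with no version, genome build or annotation release given in the sources used here. Per the file headers, a second deposited table gives symbols, coordinates, log2 ratios of group means, and for every ratio a p-value before and after adjustment, from a test that is not given. It lists probe sets whose highest group mean is above 3 on the log2 scale (lowest listed 3.0003, highest unlisted 2.9998). Its 9 per-array columns that match a title equal the main table exactly, and 3 further per-array columns match no title and were not used.

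Probe sets with 1 symbol (18403) were reduced to 17103 genes by keeping, for each gene, its brightest probe set by mean log2 value. This rule picked an 86-base probe set for Col5a2, so the gene-wide probe set is reported beside it. The model, fitted in limma 3.58.1 (R 4.3.3), had 1 mean per group and a moderated spread shared by all arrays (8 residual and 8.7 prior degrees of freedom), and 6 comparisons were drawn from it; iNSC is the mean of the iNSC1 and iNSC2 means. A call needed a p under 0.05 after Benjamini-Hochberg adjustment across all genes and at least 2-fold; tests were two-sided. The fit was checked on simulated data. With 3 arrays a group, the number of arrays limits the precision. Every gene of the set may be named. Arrays are given singly for the most changed called gene of each class and for genes called between the stem cell groups, and for others chosen after their values were seen. The gene set and the lists were chosen with earlier results of these data known. Replicate numbers were not taken to pair the arrays, since not every same-numbered pair correlated above 0.1: deviations correlated at -0.177 to 0.281 (median 0.085) over 15 same-numbered pairs, 6 of them above 0.1, and at -0.309 to 0.276 (median -0.045) over 39 others, 9 above 0.1. Because MEF is numbered 1, 3 and 5, its replicate 5 entered only among the others. There it correlated at 0.276, 0.273 and -0.054 with replicate 3 of iNSC2, NSC and iNSC1. Whether arrays share an effect by their order was not tested. Upstream sequences came from RefSeq, build GRCm38.p6, matched by symbol. Alternatives were no fold minimum, a highest group mean of at least 6, every probe set, the longest-span probe set, median-centred arrays, no trend, only the compared groups, the authors' table, a replicate block and leaving out each array.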

Additional observations from a re-analysis of the deposited data

Results flagged for a closer look

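Loxl2, Loxl3 and Plod2 are given here as the only genes of the 51 past the adjusted p and the fold for iNSC minus NSC. P4ha2, Plod1 and Loxl4 are enzymes of the set that passed the adjusted p alone. Loxl3 differed by -2.4427 and Plod2 by -2.0458 on the log2 scale (iNSC minus NSC), and all 6 iNSC arrays lay below all 3 NSC arrays for each. Loxl2 differed by 1.0523, with all 6 iNSC arrays above all 3 NSC arrays. Loxl2 also differed between the iNSC sets, by -0.9973 (iNSC1 minus iNSC2), with all 3 iNSC1 arrays below all 3 iNSC2 arrays, and it passed the adjusted p in limma without reaching 2-fold.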

How the results depend on the processing

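The count of 23 genes lower than MEF, for NSC and for iNSC, was the same with each array left out in turn. With the replicate block the counts were again 23 and 23, and no call of the 51 genes changed in the 6 comparisons. The block took the numbers as labelled. Only MEF replicate 5 carries the number 5, so this setting in effect left that array out and cannot test an effect shared by array order. With the longest-span probe set, chosen after seeing the data, Col5a2, uncalled on the 86-base probe set in all 4 comparisons with MEF, with estimates above 0, was lower: -4.66 for NSC minus MEF, -4.68 for iNSC minus MEF, -4.61 for iNSC1 minus MEF and -4.74 for iNSC2 minus MEF, because a different probe set stands for the gene. Without the fold minimum, the genes higher numbered 3 for iNSC minus MEF, 3 for iNSC1 minus MEF, 2 for iNSC2 minus MEF and 10 for iNSC minus NSC, the genes lower 4 for iNSC minus NSC, and the genes lower 1 for iNSC1 minus iNSC2. Col5a2 on its 86-base probe set is among the genes higher in each of these counts. With arrays centred on their medians, 1 gene (Loxl2) was lower in iNSC1 than in iNSC2. Leaving out each array gave 0 to 2 genes higher for iNSC minus NSC and 0 to 1 lower for iNSC1 minus iNSC2. The minimum of 6 left 33 of the 51 genes. The authors' table was used for NSC minus MEF, iNSC minus MEF and iNSC minus NSC, and not for iNSC1 minus iNSC2. Without detection calls, no reading could be placed above or at background.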
